A study of Mus musculus with 2 samples.

Results

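The genes described here are 36 interferon-stimulated genes of the antiviral response, chosen by name, as measured in intestinal epithelial cell preparations of WT and Lrrc19 KO mice. A gene counted as measured where a probe set of the array was annotated with its symbol alone. Of the 36, 34 had such a probe set (52 probe sets in all), of 18193 genes on the array that did. For Isg15, the annotation used here gave a probe set shared with another gene, and Ifi44 had none. Each genotype was represented by 1 Affymetrix array of RNA pooled in equal parts from 5 mice on the C57BL/6 background (2 males and 3 females, 6 weeks old, kept free of specific pathogens). The WT pool carried no modification, and the KO pool came from mice lacking Lrrc19, which encodes a leucine-rich repeat receptor of the gut epithelium. Cells shed from the intestine in EDTA were depleted with magnetic beads of T cells (CD4 and CD8), macrophages, dendritic cells, and B cells. The labels do not give the part of the intestine. The design asks how loss of Lrrc19 alters the transcripts of these cells.

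With 1 pool per genotype, the spread between mice was not measured. No test or p-value can therefore be given, and each difference compares these pools only. Values are probe set intensities in arbitrary units, and differences are log2(KO) minus log2(WT) on a gene's brightest probe set. An intensity of 127, the median of all probe set values, served as a floor under which a value was taken as too dim to read. The yardstick for a single difference is its spread over the 12518 genes that reached the floor in at least 1 pool, a robust SD of 0.27. The probe sets of a single gene differed by a median of 0.26 in this log2 difference, over 5007 genes with several at the floor. The medians of the arrays were 124 (WT) and 131 (KO), and the 18 hybridization spike-ins were all brighter in KO, with a median log2 difference of 0.50. The scaling between the arrays is not known, so a small difference has no settled sign. Of the probe sets of Lrrc19 itself, 1 read 905 in WT and 212 in KO, and the other 391 and 20.9, the last under the floor. The sources used here do not say whether they lie in the deleted part. Epithelial markers were bright in both pools (Epcam 12473 and 12915), but so was the smooth muscle transcript Acta2 (12549 and 14996), so the preparations also held other tissue.

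Interferons bind receptors on the cell surface, and Janus kinases attached to these receptors phosphorylate STAT proteins. Type I and type III interferons act mainly through a complex that contains STAT2 and IRF9 and binds the interferon-stimulated response element (ISRE), whereas interferon-γ acts mainly through STAT dimers at gamma-activated sites (GAS). The induced proteins sense viral nucleic acid, block its translation and replication, conjugate the ubiquitin-like protein ISG15, and amplify or terminate the signal. In the intestine, the epithelium responds strongly to type III interferon, and the microbiota maintains a basal level of many of these transcripts.

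The promoters of the members carry these elements at different rates. RefSeq windows (GRCm38.p6), from 250 bases before to 50 bases after a start site, were given for 27 of the 36 genes. They were searched on both strands for GAAANNGAA, the repeated core of the ISRE, and for TTCNNNGAA, the palindrome that STAT dimers bind. The first was found in 15 of the 27 genes (55.6%), compared with 9.76% of all 27025 genes with a window, and the second in 8 of the 27 (29.6%), compared with 9.55%. The windows below belong to the 3 members with the lowest differences (Bst2, Ube2l6, and Xaf1) and the 3 with the highest (Stat2, Irf1, and Adar) among those with a window, and they show both ends of the range. Where a gene had several windows, that with most matches was taken. Sequences run 5′ to 3′ along the gene, and capitals mark every match of either motif.
Bst2, chr8:71537423-71537722, minus strand: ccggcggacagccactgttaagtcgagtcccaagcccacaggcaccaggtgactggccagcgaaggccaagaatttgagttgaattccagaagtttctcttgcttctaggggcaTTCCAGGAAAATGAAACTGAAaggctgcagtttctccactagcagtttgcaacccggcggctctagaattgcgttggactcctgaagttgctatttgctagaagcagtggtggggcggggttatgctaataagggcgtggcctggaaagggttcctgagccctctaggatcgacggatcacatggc
Ube2l6, chr2:84798578-84798877, plus strand: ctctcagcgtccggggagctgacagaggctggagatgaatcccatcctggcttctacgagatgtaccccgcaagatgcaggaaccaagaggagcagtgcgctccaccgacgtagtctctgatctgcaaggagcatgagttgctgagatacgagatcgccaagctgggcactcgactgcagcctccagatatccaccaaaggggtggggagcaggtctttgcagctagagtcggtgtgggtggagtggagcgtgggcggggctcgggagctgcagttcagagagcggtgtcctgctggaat
Xaf1, chr11:72301379-72301678, plus strand: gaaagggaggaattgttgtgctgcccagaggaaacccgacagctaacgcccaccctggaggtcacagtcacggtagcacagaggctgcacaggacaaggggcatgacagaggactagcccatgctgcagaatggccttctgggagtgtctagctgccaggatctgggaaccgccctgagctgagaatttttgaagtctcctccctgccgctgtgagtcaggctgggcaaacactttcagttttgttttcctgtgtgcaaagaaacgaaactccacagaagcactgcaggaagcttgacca
Stat2, chr10:128270248-128270547, plus strand: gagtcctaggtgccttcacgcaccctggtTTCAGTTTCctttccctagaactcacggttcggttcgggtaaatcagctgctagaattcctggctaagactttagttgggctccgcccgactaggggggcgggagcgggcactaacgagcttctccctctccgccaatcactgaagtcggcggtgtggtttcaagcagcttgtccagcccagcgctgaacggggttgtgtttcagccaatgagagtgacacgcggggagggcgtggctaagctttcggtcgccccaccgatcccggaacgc
Irf1, chr11:53769764-53770063, plus strand: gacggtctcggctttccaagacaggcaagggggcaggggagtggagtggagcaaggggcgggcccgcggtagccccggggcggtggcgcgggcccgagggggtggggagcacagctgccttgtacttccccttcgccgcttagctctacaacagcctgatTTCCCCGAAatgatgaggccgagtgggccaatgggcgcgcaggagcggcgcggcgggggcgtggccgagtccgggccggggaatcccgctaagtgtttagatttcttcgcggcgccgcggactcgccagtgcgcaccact
Adar, chr3:89730468-89730767, plus strand: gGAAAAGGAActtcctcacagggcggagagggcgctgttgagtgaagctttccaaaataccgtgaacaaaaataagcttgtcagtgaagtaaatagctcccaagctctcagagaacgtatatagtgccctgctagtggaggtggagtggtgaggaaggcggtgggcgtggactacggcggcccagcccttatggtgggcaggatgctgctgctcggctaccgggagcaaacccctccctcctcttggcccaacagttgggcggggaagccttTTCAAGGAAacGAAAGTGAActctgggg

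In Bst2, 1 TTCNNNGAA and 2 GAAANNGAA matches overlap in a single run of capitals. Ube2l6 and Xaf1 have neither motif in these windows. Stat2 has 1 GAAANNGAA. Irf1 has 1 TTCNNNGAA. In the window shown for Adar, which has 3 windows in all, there are 2 GAAANNGAA matches and 1 TTCNNNGAA. Matching letters describe a sequence and do not show that a factor binds it.

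Most of the members were lower in the Lrrc19 KO pool, by small amounts. The log2 difference was below 0 in 25 of 34 members, or 73.5%, compared with 47.9% of all genes at the floor. The median of the members was -0.18 and that of all genes was 0.01. At least 1.5-fold lower were 7 members, namely Ido1, Bst2, Ube2l6, Zbp1, Xaf1, Trim30a, and Ifit2, or 20.6%, compared with 3.40% of all genes. Mx1 was the single member at least 1.5-fold higher (background 2.78%). Past 2-fold were Ido1 and Bst2, both lower (background 0.407%), and no member was higher by that much (background 0.559%). Of the 34, Ido1, Ube2l6, and Mx1 reached the floor in only 1 pool, so their inclusion itself required a difference. Over the 31 members that reached it in both pools, 23 were below 0, 5 were at least 1.5-fold lower, none was at least 1.5-fold higher, and the median was -0.16. Of all genes that reached it in both pools, 48.5% were below 0, 3.19% were at least 1.5-fold lower, and 2.41% were at least 1.5-fold higher.

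Scaling an array by a constant moves the medians of the members and of all genes together. The gap between them is therefore nearly fixed in advance under such a scaling and is no check. Over all alternative scalings and gene summaries, the median of the members minus that of all genes lay between -0.23 (all probe sets averaged) and -0.14 (quantile normalization). By sign, 24 members were below 0 and Mx1 was above 0 in every such setting that kept the gene, and the other 9 changed sign in at least 1. Centring on the spike-ins lowers every difference by 0.50, and 8 of the 9 turned below 0 there, as did most genes (96.0% of all genes below 0). These counts therefore favor members below 0 by construction and are no check on direction. The same counts over all genes were not made.

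**Figure D1:**
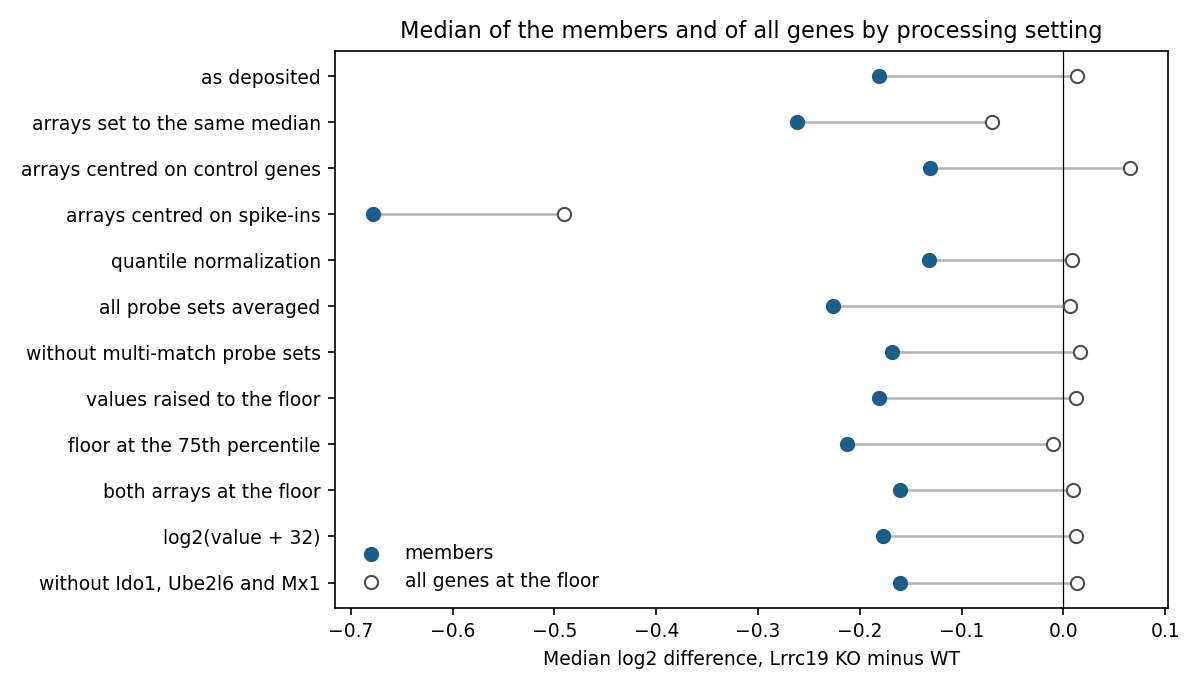
Medians of the log2 difference, KO minus WT, for the members and for all genes at the floor, under the reported processing and each alternative. Centring on the spike-ins adds a constant and so moves both medians down together. Over all settings the distance between them lies between 0.14 and 0.23.

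**Figure D2:**
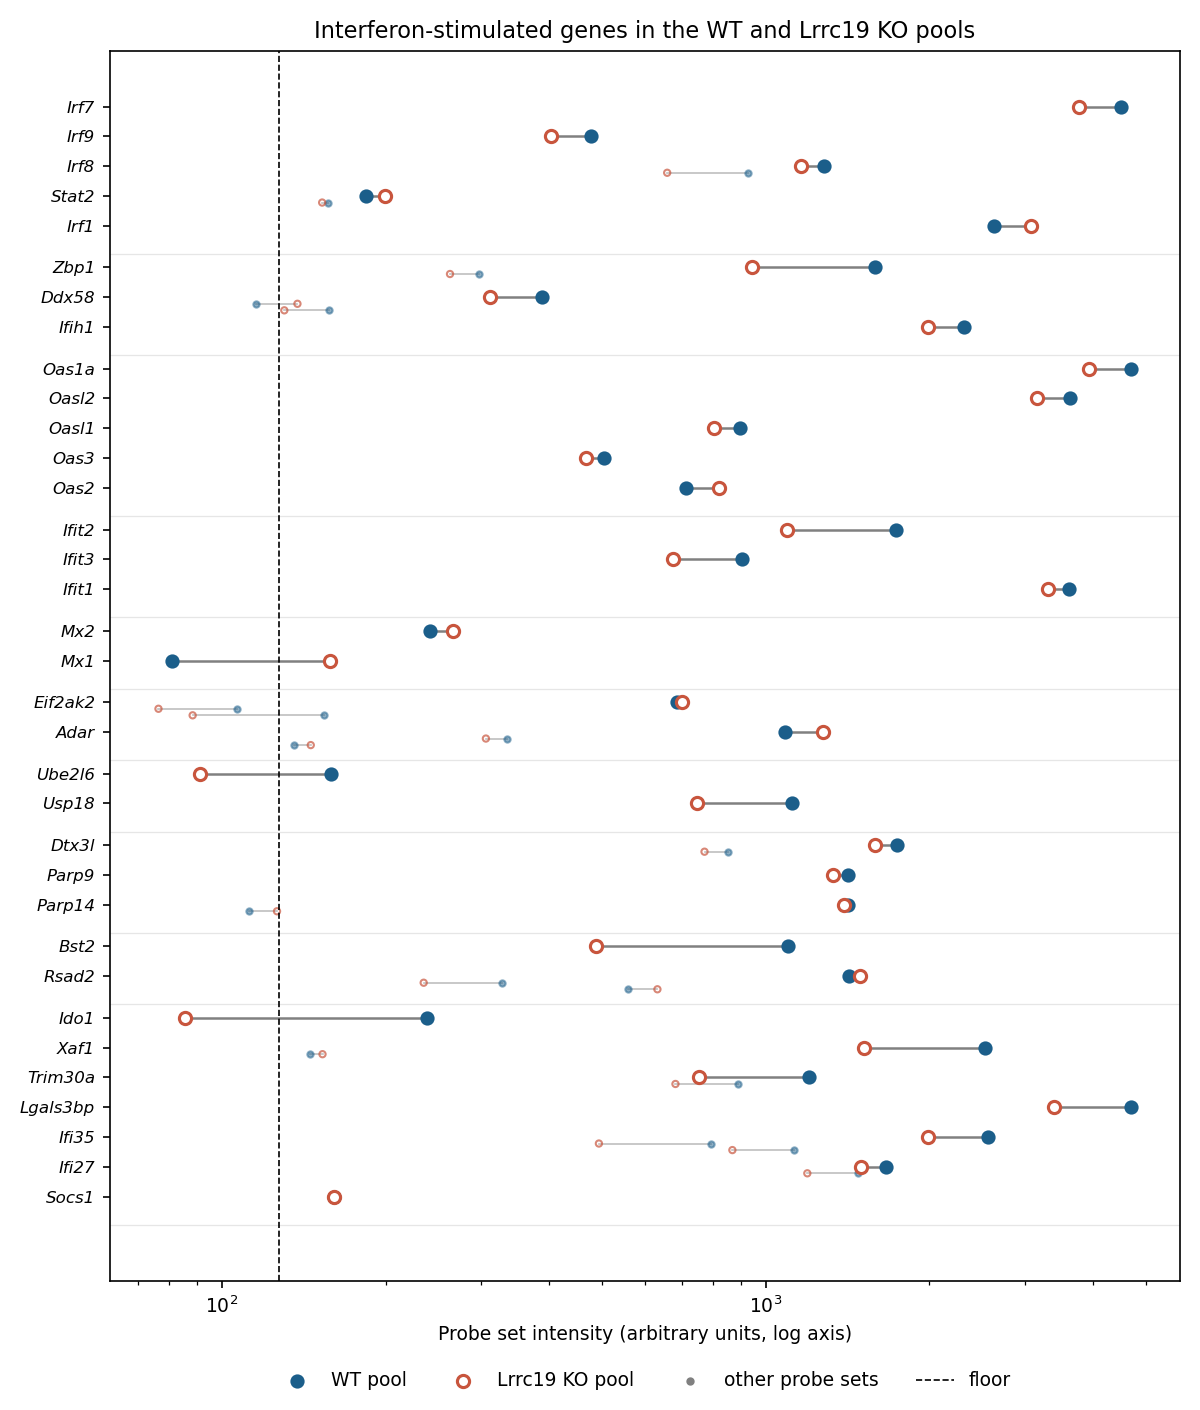
Member intensities in arbitrary units on a log axis, filled for WT and open for Lrrc19 KO. Each symbol is a value from a single array, so there are no error bars. Large symbols are the brightest probe set, small symbols just under them are the gene's other probe sets, rows are grouped by role, and a dashed line marks the floor (127). The widest gaps are those of Ido1, Bst2, and Mx1, and those of Ido1 and Mx1 cross the floor.

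**Figure D3:**
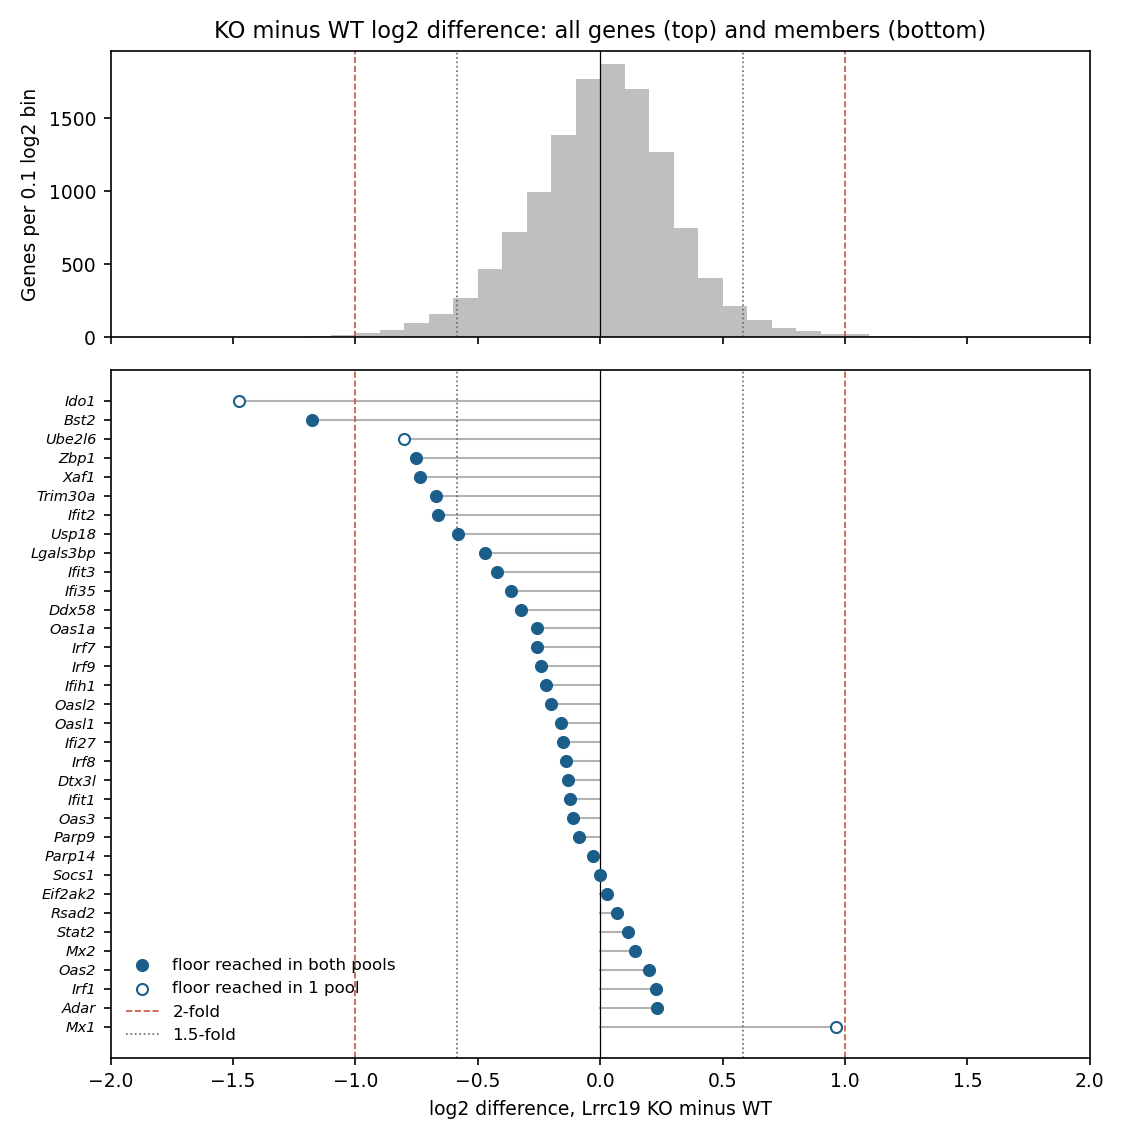
Log2 difference (Lrrc19 KO minus WT) of all 12518 genes at the floor as a histogram (top, cropped at the axis limits) and of the 34 members in order (bottom). Dashed lines mark 2-fold and dotted lines 1.5-fold. The members run from -1.48 for Ido1 to 0.96 for Mx1, and 25 lie below 0.

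Ido1 and Bst2 differed most. Ido1, which degrades tryptophan and is strongly induced by interferon-γ, read 238 in WT and 85.5 in KO. The latter lies under the floor, and with the floor in its place Ido1 was at least 1.87-fold lower. Bst2 (tetherin), which holds budding virions at the cell surface, was bright in both pools, at 1101 in WT and 486 in KO (2.26-fold lower). Both have a single probe set. Rsad2 (viperin), an enzyme that makes a chain-terminating nucleotide, had 3 probe sets that did not move together. The brightest read 1423 in WT and 1492 in KO, the next 558 and 632, and the dimmest 328 and 235.

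The sensors of foreign nucleic acid were all lower on their brightest probe sets, by different amounts. Zbp1, which detects Z-form nucleic acid and can start necroptosis, read 1591 in WT and 944 in KO (1.68-fold lower). Its second probe set differed less, from 297 to 263. Ddx58 (RIG-I), which detects the ends of viral RNA, was at 388 and 310, and Ifih1 (MDA5), which detects long viral RNA, at 2315 and 1984. A dim probe set of Ddx58 ran the other way, at 116 in WT and 138 in KO.

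Members of the IFIT family, which bind foreign RNA and restrain its translation, were unequal although their genes are neighbors. Ifit2 was at 1735 in WT and 1095 in KO (1.58-fold lower), the member closest to the 1.5-fold limit among those past it. Ifit3 was at 903 and 675 (1.34-fold lower). Ifit1 was at 3604 and 3307, a log2 difference of -0.12 that lies well within the spread over genes. Ifit1 and Ifit3 have closely related copies in the mouse genome, and signal from these was not separated here.

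The genes of the oligoadenylate synthetase family stayed close to their WT levels. Oas1a was at 4698 in WT and 3923 in KO, Oas3 at 504 and 466, Oasl1 at 898 and 804, and Oasl2, like Oasl1 a family member with ubiquitin-like domains, at 3622 and 3148. Oas2 was the exception in direction, at 713 and 819. All 5 differences lay between -0.26 and 0.20, under the robust SD over genes in size. Oas1a belongs to a cluster of similar genes, so its probe set may read several.

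Of the dynamin-like GTPases that trap viral components, Mx1 was dim and Mx2 slightly brighter in KO. Mx1 read 80.9 in WT, under the floor, and 158 in KO, so it was at least 1.24-fold higher. Inbred strains such as C57BL/6 are known to carry a defective Mx1 allele. Mx2 read 241 in WT and 266 in KO, and its sign turns when the arrays are centred on the spike-ins.

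The enzymes that act on RNA duplexes did not differ beyond the spread over genes on their brightest probe sets. Eif2ak2 (PKR), the kinase that halts translation, read 688 in WT and 701 in KO, and a second probe set read 154 and 88.3, the latter under the floor. Adar, which converts adenosine to inosine, was at 1084 and 1274 on its brightest probe set and at 335 and 306 on another. Both genes turn below 0 with centring on the spike-ins, and Eif2ak2 also with equal array medians or with all probe sets averaged.

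Genes of ISG15 conjugation were lower in KO. Usp18, the protease that removes ISG15 and dampens receptor signaling, was at 1117 in WT and 747 in KO, just short of 1.5-fold (1.495-fold lower). Ube2l6, the conjugating enzyme of ISG15, was dim, at 159 and 91.1. The latter is under the floor, so it was at least 1.25-fold lower. The probe set annotated to both Isg15 and Gm9706 read 1983 in WT and 1324 in KO (1.498-fold lower), which cannot be assigned to Isg15 alone. Of the enzymes outside the members, Uba7, which activates ISG15, was at 705 and 608, and the ligase Herc6 at 420 and 311.

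The ADP-ribosylation group hardly differed. Parp9 was at 1414 in WT and 1331 in KO, its partner ligase Dtx3l, a neighboring gene, at 1743 and 1590, and Parp14 at 1419 and 1391. All 3 differences lay between -0.13 and -0.03, and that of Parp14 turns above 0 with the arrays centred on control genes, with quantile normalization, or with all probe sets averaged.

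Factors that transmit and amplify the interferon signal showed no common direction. Irf7, the factor that drives the later interferon-α genes, was at 4507 in WT and 3772 in KO. Irf9, the DNA-binding partner of STAT2, was at 476 and 402, and Stat2 at 184 and 199. Irf1, an early interferon-γ target that activates antiviral genes, was at 2627 and 3080, higher in KO. Irf8, needed for macrophages and dendritic cells to develop, was at 1279 and 1162 on its brightest probe set and at 927 and 659 on the other. Socs1, a feedback inhibitor of Janus kinases, read 161 in both pools. None of these genes passed 1.5-fold. Irf1, Stat2, and Socs1 turn below 0 with centring on the spike-ins, and Socs1 also with equal array medians or quantile normalization.

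Other interferon-induced members, apart from Socs1 described above (161 in both pools), were all lower on their brightest probe sets. Xaf1, a proapoptotic protein, was at 2529 in WT and 1517 in KO, 1.67-fold lower, but a dim probe set read 145 and 153. Trim30a, a tripartite-motif protein, was at 1201 and 754 (1.59-fold lower) and at 887 and 682 on its second probe set. Lgals3bp, a secreted glycoprotein, was at 4695 and 3387. Ifi35 was at 2559 and 1990, and its other 2 probe sets were lower as well (1129 and 868, and 793 and 493). Ifi27, a mitochondrial membrane protein, was at 1666 and 1499.

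The probe sets of a gene can be compared within the arrays. At the floor, 37 of the members' 50 probe sets (74.0%) were below 0, compared with 48.5% of all 20450 single-gene probe sets. The 50 include the brightest probe sets already counted above and come from the same arrays, so this share is not independent of that count. Of the 12 members with several such probe sets, 6 had probe sets of both signs (Xaf1, Ddx58, Eif2ak2, Rsad2, Stat2, and Adar), compared with 42.9% of the 5007 genes with several. Zbp1, Trim30a, Ifi35, Ifi27, Irf8, and Dtx3l were lower on every such probe set.

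Members with and without the promoter motifs lay on both sides of 0. The 13 measured members with GAAANNGAA in a window had a median log2 difference of -0.12, with 8 below 0. The 12 without it had a median of -0.25, with 11 below 0. Of all genes at the floor, 47.9% were below 0. Whether the motif goes with the difference was not tested. For TTCNNNGAA the medians were -0.20 (8 members) and -0.22 (17 members). Bst2, with both motifs, and Ube2l6 and Xaf1, with neither in these windows, were among the lowest.

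The upstream genes of the pathway were measured on the same arrays. Of 21 interferon genes listed, 10 had a probe set of their own and 8 of these were under the floor in both pools, among them Ifng (42.7 in WT and 48.6 in KO) and Ifnb1 (28.6 and 25.7). Ifna1 (130 and 137) and Ifna9 (144 and 113) lay close to the floor. Of 6 receptor chains, Ifnar2, a chain of the type I receptor, was at 460 and 296 on its brightest probe set (1.55-fold lower, other probe sets under the floor), while its partner Ifnar1 was at 327 and 291. Ifngr1 was at 2219 and 2507, Ifngr2 at 1922 and 1853, and the type III chains Ifnlr1 and Il10rb at 181 and 193 and at 1965 and 1917. The kinases Jak1 (577 and 519) and Tyk2 (332 and 323) differed little, whereas Jak2 was at 1456 and 1941 and the factor Stat3 at 1154 and 1382. None of 8 kinases and factors outside the members passed 1.5-fold, and their median was 0.12. Of 9 further sensors and adaptors at the floor, 1 was at least 1.5-fold lower, the RIG-I-like regulator Dhx58 (264 and 164). The RIG-I ubiquitin ligase Trim25 was at 2737 and 3330, and the median of these genes was -0.05.

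**Figure D4:**
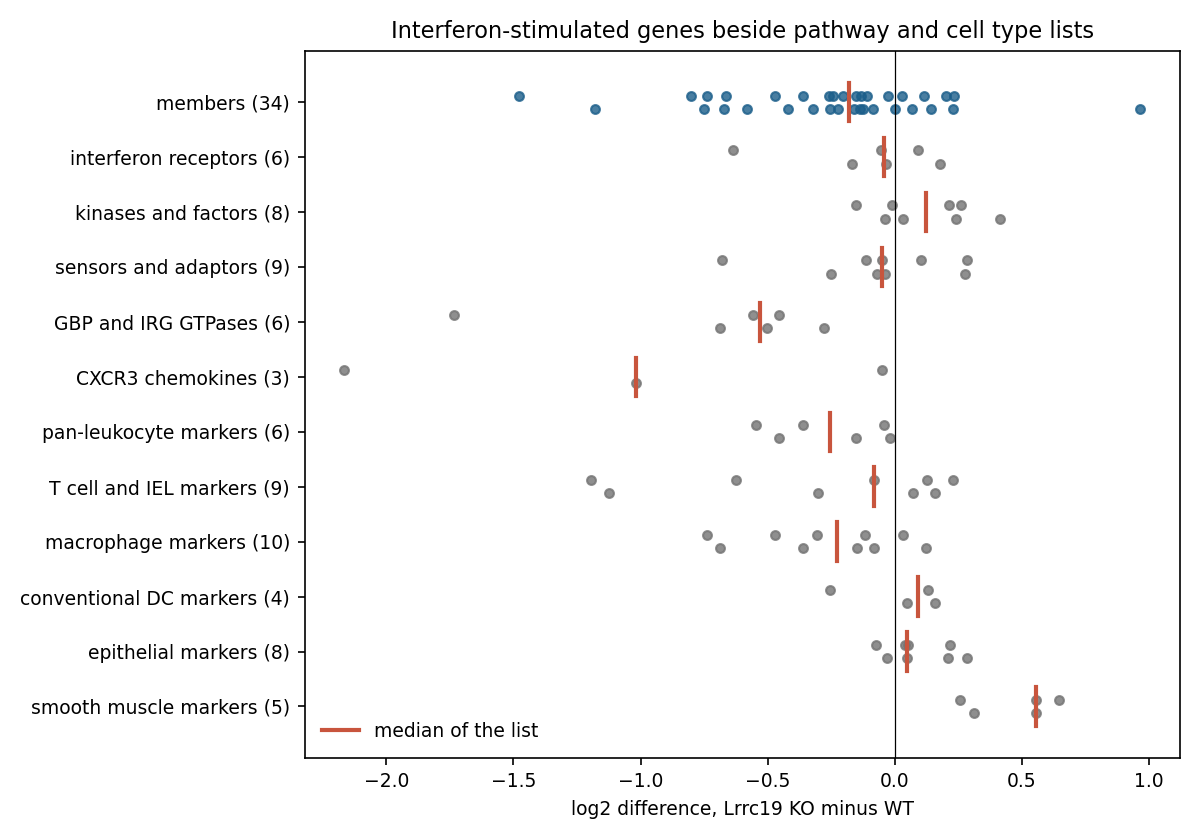
Log2 difference (Lrrc19 KO minus WT) of each gene at the floor in at least 1 pool (points), for the members and for lists of the interferon pathway and of cell types, with the number of genes in parentheses and red bars at the median. The members center at -0.18, interferon receptors at -0.04, epithelial markers at 0.05, and smooth muscle markers at 0.55.

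Genes that respond to interferon-γ were described beside the members. Of 7 guanylate-binding and IRG GTPases listed, which attack the vacuoles of intracellular microbes, 6 were measured (Tgtp1 was not). All 6 were below 0 (47.9% of all genes), with a median of -0.53, and 2 were at least 1.5-fold lower (3.40% of all genes). Iigp1 was 3.32-fold lower (1785 in WT and 537 in KO) and Irgm1 1.61-fold lower (1275 and 792). Of the CXCR3 ligands, Cxcl9 was at 500.0 in WT but 112 in KO, which is under the floor, and its second probe set differed much less (162 and 142). Cxcl10 was at 146 and 72.4, the latter under the floor, and Cxcl11 at 466 and 449.5.

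Markers of other cell types that express interferon-stimulated genes differed in some lists and hardly in others. All 6 pan-leukocyte markers reached the floor and lay below 0, compared with 47.9% of all genes at the floor. Their summed intensity was 4469.7 in WT and 3711 in KO, Cd53 (464 and 318) and Srgn (1364 and 993) differing most. The log2 differences of Ptprc (-0.04), Laptm5 (-0.02), and Coro1a (-0.15) lay within the spread over genes. Of 12 macrophage markers, 10 reached the floor (Cd68 and Itgam did not), with a sum over all 12 of 10486 and 8666. Of the 10, 8 were below 0 with a median of -0.23. The lowest differences were those of Adgre1 (-0.74) and Fcgr3 (-0.69), and Cd14 (0.12) and Mrc1 (0.03) were above 0. Of 11 T cell and intraepithelial lymphocyte markers measured, 9 reached the floor (Cd8b1 and Cd247 did not), with a sum of 4500.2 and 3539, and Gzmb (420.3 and 184) and Gzma (1278 and 587) were past 2-fold. These granzymes made up most of the change in the sum. Of the 9, 5 were below 0 with a median of -0.08, Cd3g was at 264 and 171, and Cd3e (0.13), Cd4 (0.16), Cd8a (0.23), and Zap70 (0.07) had log2 differences above 0. The conventional dendritic cell markers, 4 of 5 at the floor, summed to 749 and 754, Xcr1 (215 and 180.0) and Flt3 (136 and 152) differing most. The plasmacytoid dendritic cell marker Siglech reached the floor in neither pool (85.2 and 87.6). The sum of its list, 11749 and 7761, was mostly that of Klk1 (10026 and 5834), followed by Tcf4 (1103 and 1282). The 4 markers of this list at the floor had a median log2 difference of 0.01, with 2 below 0, so the lower sum does not describe the list. Epithelial markers summed to 82049.7 and 86279, Cdh1 (6677 and 8119) and Krt20 (8894 and 10333) differing most, and smooth muscle markers to 38725 and 51496, with Des at 4206 and 6581 and Myh11 at 5685 and 8349. Genes that mark gut segments also differed. Of 5 colon markers at the floor, Hoxd13 (42.4 in WT, under the floor, and 255 in KO) and Hoxb13 (259 and 738) were higher, as was Aqp8 (2019 and 4873), whereas Car1 (22420.1 and 18909) and Mettl7b (4152 and 3133) were lower. Of 5 ileum markers, Osr2 (472 and 215), Fabp6 (251 and 151), Guca2b (637 and 398), and Slc10a2 (466 and 372) were lower and Mep1a (3847 and 4556) was higher. In such pools, fewer cells of a type and less RNA per cell cannot be told apart, and the part of these cell types and gut segments in the members' differences was not tested.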

How the data were processed

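RNA from the epithelial cell pools of 5 WT and 5 Lrrc19 KO mice was hybridized to 1 Affymetrix mouse array each. The authors deposited linear intensities for 45101 probe sets, ranging from 1 to 25842, and the submitters' processing notes name RMA without a version. Array scaling, background settings, and the reason the values are not on the log2 scale RMA returns are not given in the sources used here. With 1 array per genotype, no error could be estimated.

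From these, log2 values were taken, with values under 1 set to 1. Of the 45101 probe sets, 64 were controls, 34945 were annotated with 1 gene, 932 with several, and 9160 with none. Symbols of 34741 were updated through RefSeq gene IDs (GRCm38.p6). A gene was represented by its single-gene probe set of highest mean log2 intensity. Genes at or above the 50th percentile of all values (127) in at least 1 pool were kept. A difference of 2-fold was called, and 1.5-fold was also counted. The members and lists were chosen with earlier results of these data known. Every member is described by role, from the pathway lists the receptors, the kinases, genes past 1.5-fold, and the 2 largest differences, and from each marker list described the 2 largest differences. Other genes of the marker lists were named after their values were seen. Promoters were printed for the 3 lowest and 3 highest members with a window. Alternatives covered scaling, summary, floor, and pseudocount. Calculations used Python 3.11.15, numpy 2.4.6, and pandas 2.3.3. The 2-fold calls were tested on simulated arrays, in which the planted changes were larger than 2-fold and lay in genes well above the floor. That simulation did not cover the 1.5-fold counts, signs, or medians.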

Additional observations from a re-analysis of the deposited data

How the results depend on the processing

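More members were below than above 0 under all 10 alternatives, but the share of all genes below 0 moved with the scaling too. With both arrays set to the same median, 82.4% of members and 60.7% of all genes were below 0. With centring on 10 control genes, these shares were 70.6% and 40.4%. Centred on the spike-ins, however, 97.1% of members and 96.0% of all genes were below 0, so that share is near the background there. Counts past a fold were small and moved. With both arrays set to the same median (all-gene median -0.07), the members' median was -0.26. Centred on 10 control genes (all-gene median 0.07), it was -0.13, and 1 member, Mx1, was at least 2-fold higher (87 of 12547 genes). Centred on the spike-ins (all-gene median -0.49), it was -0.68. There, 8 members were at least 2-fold lower (5.21% of all genes) and 23 at least 1.5-fold lower (36.0% of all genes). At least 1.5-fold higher were 0 (0.40% of all genes). Averaging all probe sets left 4 members at least 1.5-fold lower (3.04% of all genes). Further settings raised values to the floor, set the floor at the 75th percentile, or required both arrays at the floor. Another left out Ido1, Ube2l6, and Mx1 (chosen after seeing the data). Each of these left 1 member at least 2-fold lower (0.33% to 0.51% of all genes). Each also left 0 at least 1.5-fold higher (2.41% to 3.06% of all genes). Without probe sets that can match several transcripts, 0 were at least 1.5-fold higher (2.96% of all genes). Below 0 turned Eif2ak2, Rsad2, and Socs1 with the same median, and these with Irf1, Stat2, Oas2, Mx2, and Adar with the spike-ins. The cause of these shifts is the constant each scaling adds. Raising values to the floor clips Ido1, Ube2l6, and Mx1. The other summary and floor settings change the probe sets or members left in. No paired analysis was possible because each genotype has 1 array. Dim members (Ido1, Ube2l6, Mx1, Socs1, Stat2) are limited by signal near the floor.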

Other observations

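A further 50 interferon-inducible genes were chosen after the values of the members were known, to describe genes outside the antiviral list. Of these, 42 had a probe set of their own and 40 reached the floor in at least 1 pool. Below 0 were 31 of the 40 (77.5%, compared with 47.9% of all genes). At least 1.5-fold lower were 12 (3.40% of all genes), and 0 were at least 1.5-fold higher (2.78% of all genes). The median log2 difference of the 40 was -0.29. Of the 12, Gm4951 and Ms4a4b reached the floor only in WT, so their inclusion itself required a difference. With the floor in place of its KO value, Ms4a4b was at least 1.37-fold lower. Lgals9, a galectin induced by interferon-γ, read 2299.9 in WT and 901 in KO (2.55-fold lower). Gm4951, an IRG-related GTPase gene, read 184 in WT and 70.7 in KO, and with the floor in place of the latter it was at least 1.45-fold lower. Ifitm3, which blocks the entry of viruses from endosomes, was at 3757 and 2074 (1.81-fold lower), and Ly6e, a surface protein that restricts coronavirus fusion, at 3282 and 1789.7 (1.83-fold lower). A dim second probe set of Ly6e ran the other way, at 117 in WT, under the floor, and 160.2 in KO. Epsti1 was at 1782 and 1015 on its brightest probe set, but at 336 and 358 and at 559 and 564 on other probe sets. The other genes past 1.5-fold, all lower, were Nmi, Ifi27l2a, Ddx60, Phf11d, Slfn5, Tnfsf10, and Ms4a4b, the last under the floor in KO. Second probe sets differed less for Ddx60 (1308 and 1071) and Tnfsf10 (187 and 161).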
